A study of Mus musculus with 6 samples.

Results

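The 43 genes described here act in G2 and mitosis: the proliferation and chromosome proteins Mki67 and Top2a, the mitotic cyclins with Cdk1 and its Cdc25 phosphatases, the Polo and Aurora kinases, the spindle checkpoint, mitotic kinesins, kinetochore and spindle proteins, and cytokinesis factors. They were chosen by symbol for their known function, and each matched 1 of the 41095 rows of the deposited gene table. All 43 averaged at least 1 FPKM and so entered the test, which covered 10867 genes. FPKM corrects a gene's reads for its length in kilobases and for the size of the library.

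The groups are wild-type (WT) mouse CD8+ T cells with acetate (3 libraries) and the same kind of cells with no treatment as controls (3 libraries), all from spleen, purified by positive magnetic selection and sequenced in bulk. Every library came from a 72 h culture that stimulated the T cell receptor and its costimulator with plate-bound antibodies (CD3, 5 µg/mL; CD28, 2 µg/mL; plates were coated over 24 h) and supplied IL-2 (30 U/mL). Acetate was given for 48 h; the label's unit is irregular and is taken to mean 5 mmol/L. Mouse strain and age are not given in the labels, nor the time of addition within the culture, nor whether the libraries within a group are different animals, so the p-values here measure spread between these samples only and that spread may be technical. According to the design text the comparison is before against after treatment, in which case culture time and acetate cannot be told apart.

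Cells enter mitosis when cyclin B bound to Cdk1 is freed from inhibitory phosphorylation by the Cdc25 phosphatases, and leave it when the anaphase-promoting complex with Cdc20 marks cyclin B and securin for destruction. In between, Polo and Aurora kinases build the spindle, kinesins move its microtubules and chromosomes, the checkpoint kinases hold anaphase until every kinetochore is attached, and the centralspindlin complex directs the cleavage furrow. Activated CD8+ T cells are among the fastest dividing cells of adult mammals, and most of these genes are transcribed in a burst late in the cell cycle under the MuvB complex with B-Myb and FoxM1.

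The libraries held between 31098394 and 39140711 reads, worked out from the FPKM values, and each member had between 191 and 15533 reads in every library. The totals that the FPKM values were scaled by differ from these sums: 39140711, 35037986 and 31098394 recovered reads stand against implied totals of 39141865, 34648788 and 30623316 in acetate libraries, and 32195815, 35713993 and 35138058 against 32877921, 36203543 and 36085078 in control libraries. Deposited FPKM values therefore run slightly higher in acetate relative to control libraries than scaling by recovered reads would give, and voom uses the recovered reads. All 10 CD8 T cell markers were expressed, with summed levels of 2239 to 2405 FPKM in acetate libraries and 2139 to 2177 FPKM in control libraries, and 4 of them passed the test as higher. Among 9 B cell markers only Cd79b averaged over 1 FPKM across all libraries (list sums 17.5 to 19.0 FPKM with acetate and 18.1 to 19.9 FPKM in controls). Fcer2a, which was not tested, had 0.536, 0.554 and 0.452 FPKM with acetate, against 1.30, 1.15 and 0.853 FPKM in controls. Of 10 measured myeloid markers only Cd68 averaged over 1 FPKM across all libraries (list sums 11.5 to 12.6 and 10.9 to 12.4 FPKM), with Itgam and S100a9 at 0 throughout. Fcgr3, also not tested, averaged 0.639 FPKM with acetate and 1.02 FPKM in controls. Dendritic cell markers summed to 16.3 to 18.6 FPKM with acetate and 16.6 to 20.2 FPKM in controls, with Siglech at 0. Most of that sum was Batf3, with means of 15.9 FPKM with acetate and 16.2 FPKM in controls, which did not pass. Zbtb46 was lower with acetate, at 1.31, 1.08 and 1.15 FPKM, against 2.09, 2.23 and 2.14 FPKM in controls (limma adjusted p = 0.00225). The other dendritic cell markers averaged under 1 FPKM. Natural killer and erythroid markers stayed under 1 FPKM. The CD4 T cell list summed to 16.3 to 17.4 FPKM in acetate libraries and 21.3 to 22.4 FPKM in control libraries. That gap came from Zbtb7b, at 6.86, 6.92 and 7.56 FPKM with acetate, against 13.1, 12.8 and 13.1 FPKM in controls, while Cd4 itself was at 0.938, 0.809 and 1.09 FPKM with acetate, against 0.769, 0.534 and 0.619 FPKM in controls, and Cd40lg overlapped. The stromal and endothelial list summed to 3.96 to 4.20 FPKM with acetate and 4.99 to 5.34 FPKM in controls. That gap came from Pecam1 alone (means 3.81 FPKM with acetate and 4.98 FPKM in controls), and the other 5 genes averaged under 1 FPKM. The part of these marker differences in the results below was not tested. In bulk RNA, fewer cells in a phase of the cycle and less RNA per cell cannot be told apart.

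The promoters of some members that changed in opposite directions are shown first, because the same short elements recur in most of them. The sequences are RefSeq's for mouse build GRCm38.p6, 5′ to 3′ on the gene's own strand, from 120 bases before the annotated start to 30 bases after it. Capitals mark TTTGAA, the core of the element known as CHR that MuvB binds, and CCAAT, the box bound by NF-Y, each on either strand, so that TTCAAA and ATTGG are the same elements read on the other strand. Cdk1 (chr10:69352883-69353032, minus strand), Ttk (chr9:83834569-83834718, plus strand) and Kif20b (chr19:34922238-34922387, plus strand) had higher levels with acetate.
Cdk1: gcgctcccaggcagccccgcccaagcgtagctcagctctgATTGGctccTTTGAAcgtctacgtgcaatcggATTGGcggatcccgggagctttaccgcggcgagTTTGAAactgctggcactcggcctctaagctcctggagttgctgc
Ttk: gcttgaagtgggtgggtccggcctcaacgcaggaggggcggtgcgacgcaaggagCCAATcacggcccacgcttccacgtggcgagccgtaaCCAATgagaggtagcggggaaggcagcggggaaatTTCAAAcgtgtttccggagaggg
Kif20b: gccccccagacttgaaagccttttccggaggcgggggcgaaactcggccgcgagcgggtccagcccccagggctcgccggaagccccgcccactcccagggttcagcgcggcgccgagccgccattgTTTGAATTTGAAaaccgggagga
Kif23 (chr9:61946770-61946919, minus strand), Racgap1 (chr15:99651627-99651776, minus strand) and Nusap1 (chr2:119618178-119618327, plus strand) had lower levels with acetate.
Kif23: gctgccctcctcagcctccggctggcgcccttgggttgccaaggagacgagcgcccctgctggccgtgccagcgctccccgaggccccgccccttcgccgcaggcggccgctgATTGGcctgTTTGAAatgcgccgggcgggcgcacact
Racgap1: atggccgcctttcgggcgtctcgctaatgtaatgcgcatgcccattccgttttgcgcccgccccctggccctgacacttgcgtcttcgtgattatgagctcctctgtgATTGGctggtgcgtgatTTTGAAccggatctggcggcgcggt
Nusap1: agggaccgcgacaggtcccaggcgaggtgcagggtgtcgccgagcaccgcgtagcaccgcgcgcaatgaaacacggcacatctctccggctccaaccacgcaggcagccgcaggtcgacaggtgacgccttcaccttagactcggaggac
Ccnb2 (chr9:70421525-70421674, minus strand) encodes a partner of Cdk1 and did not pass the test.
Ccnb2: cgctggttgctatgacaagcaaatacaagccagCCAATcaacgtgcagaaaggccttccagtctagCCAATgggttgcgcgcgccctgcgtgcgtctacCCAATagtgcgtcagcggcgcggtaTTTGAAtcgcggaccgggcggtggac
Kif23 and Racgap1, whose proteins bind each other, both carried a CCAAT box and TTTGAA close to the start, while the Nusap1 window held neither.

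Over the whole RefSeq window, from 250 bases before the start to 50 after it, 37 of the 43 members had a sequence (3 of them more than 1 window), and Cdc25c, Tpx2, Ccna2, Aurkb, Kif20a and Incenp did not. TTTGAA was found in 29 of the 37 (78.4%), against 20.2% of 27025 genes with a promoter in the table and 4 of 21 replication genes (19.0%). In 26 of those 29 it began within 50 bases of the start. CCAAT was found in 28 of 37 members (75.7%), in 41.1% of all genes and in 15 of 21 replication genes (71.4%). The E2F-type motif GGCGGGAA was found in 0 of 37 members, 4 of 21 replication genes and 2.52% of all genes, and TTTGGCGC in 1 of 37, 5 of 21 and 0.585%. Both strands were searched, and where neighbouring motifs share end letters a base counted for each. Within the members, TTTGAA was present in 4 of 4 that rose, 6 of 7 that fell and 19 of 26 that did not pass the test, so that its presence did not separate the directions. A match describes letters in a window and is not evidence of binding.

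The summed level of the 43 genes overlapped between acetate and control cells, while single genes moved in both directions. The summed level of the members was 573.2, 584.2 and 582.5 FPKM in acetate libraries, against 584.9, 588.6 and 583.1 FPKM in control libraries. The lowest of the 6 was an acetate library, and the group means were 580.0 ± 5.92 and 585.5 ± 2.80 FPKM (SD, n = 3 each). The overlap was narrow, with the highest acetate sum at 584.2 FPKM and the lowest control sum at 583.1 FPKM, so single members can decide it. Bub3, the most abundant member, had 76.2, 80.2 and 88.0 FPKM with acetate, against 74.6, 73.1 and 71.9 FPKM in controls. Summed without Bub3, the members lay lower in every acetate library than in every control library. The same held when Cdk1 was left out instead, so the overlap was not owed to Bub3 alone. By limma on log2(FPKM + 1), with Benjamini-Hochberg adjustment over all 10867 genes and a threshold of 0.05, 4 members were higher with acetate (Cdk1, Ttk, Kif20b and Ckap2), 7 were lower (Mki67, Kif11, Kif18b, Kif23, Cenpa, Nusap1 and Racgap1) and 32 did not pass. Over all tested genes 38.9% passed, 22% as higher and 16.9% as lower, so the members' 25.6% was below the background. After rescaling to TPM, 2 members were higher and 12 lower, where the background was 12.8% and 22.5% of genes and the share of calls that were higher was 36.4%, against 56.6% on the FPKM scale. With voom on the recovered reads, 4 members were higher and 11 lower, where the background was 19.1% and 23.4% and 45.0% of calls were higher.

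The changes were small. The median log2 difference of the members was −0.03, beside 0.02 for all tested genes (−0.11 and −0.05 after rescaling to TPM), and the median absolute difference was 0.09, beside 0.15. No member reached an absolute difference of 0.5, which 553 of all tested genes did (5.09%), and the farthest member stood at the 84.7th percentile of absolute differences. Acetate values lay wholly above control values for 6 members and wholly below for 12, and overlapped for 25; over all tested genes 51.9% did not overlap, 28.8% above and 23.1% below. For 23 of the 32 members that did not pass, the 95% interval of the difference lay within 0.25 of 0 in both directions.

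**Figure D1:**
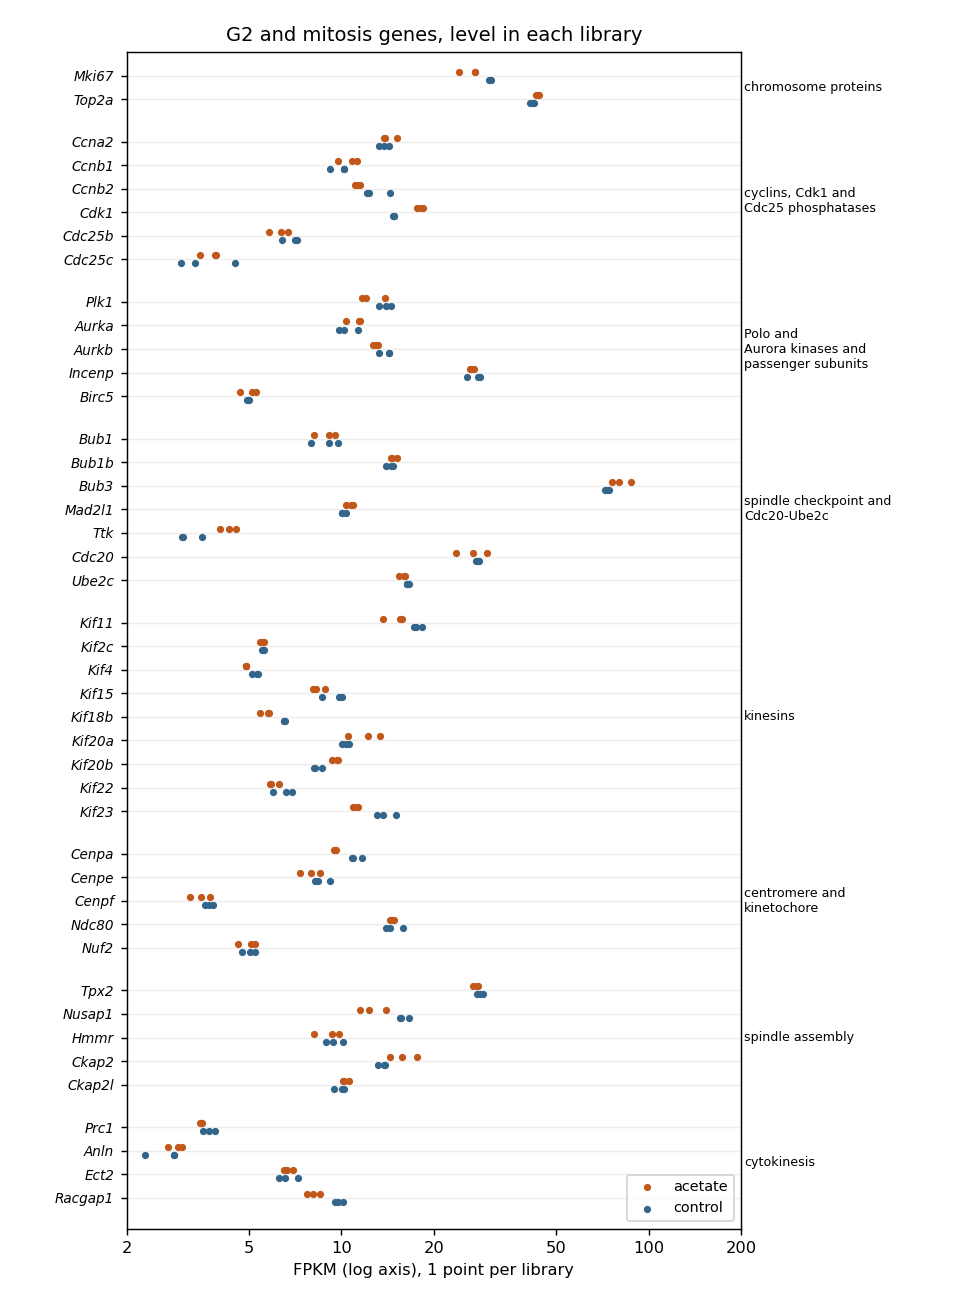
Level of each of the 43 genes in each library, in FPKM on a log axis, with acetate libraries in orange above control libraries in blue and the genes ordered by role. Bub3, at 71.9 to 88.0 FPKM, is the most abundant, Anln, at 2.29 to 3.02 FPKM, the least, and the orange and blue points of most genes lie close together or overlap.

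**Figure D2:**
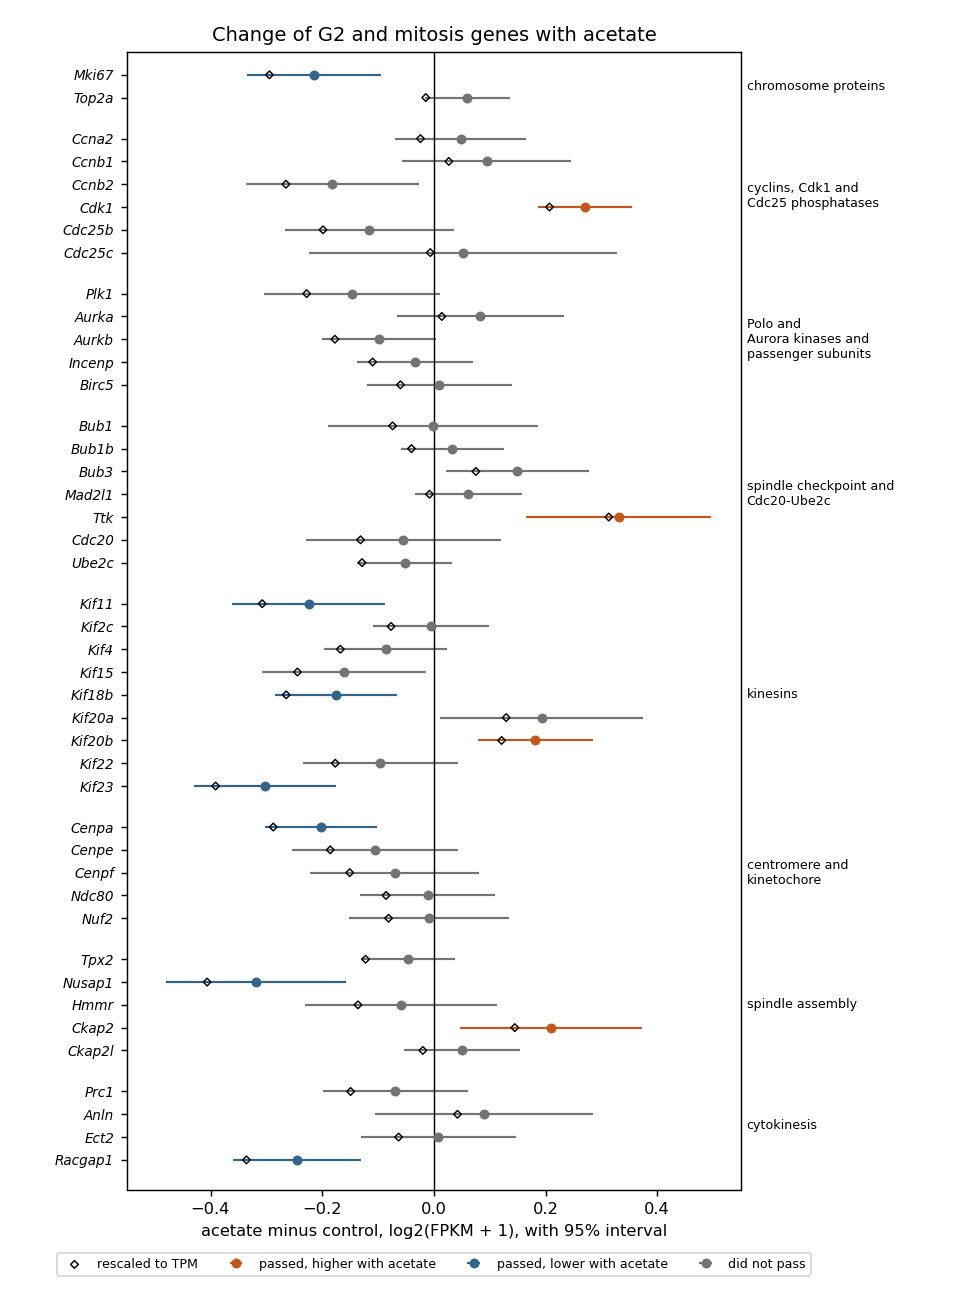
Difference between acetate and control cells for each gene on the log2(FPKM + 1) scale with its 95% interval, coloured by whether the gene passed the test, with the difference after rescaling to TPM as an open diamond. The 4 genes in orange lie between 0.18 and 0.33 and the 7 in blue between −0.32 and −0.18, and the diamonds sit to the left of the points.

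Of the chromosome proteins, Mki67 fell and Top2a did not pass. Mki67 encodes Ki-67, the surface coat of mitotic chromosomes widely used to mark dividing cells. It had 27.2, 27.2 and 24.1 FPKM with acetate, against 30.4, 30.3 and 30.8 FPKM in controls. All acetate values were below all control values, and the log2 difference was −0.21 ± 0.05 (SE; limma adjusted p = 0.0147), a call kept under each of 16 alternatives. Top2a, the topoisomerase that untangles sister DNA, had 44.0, 43.7 and 43.1 FPKM with acetate, against 41.0, 42.3 and 42.1 FPKM in controls. Its groups did not overlap either, but in the opposite direction, and the difference of 0.06 (95% interval −0.02 to 0.14; −0.01 after rescaling to TPM) did not pass.

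Among the cyclins, Cdk1 and Cdc25 genes, Cdk1 rose and the other 5 did not pass (16.7% passed, beside 38.9% of all tested genes). Cdk1 encodes the kinase that drives entry into mitosis. Its level was 18.5, 17.6 and 18.1 FPKM in acetate libraries, against 14.9, 14.8 and 14.7 FPKM in control libraries. The gap between the groups exceeded the spread within either, with a mean 1.22 times the control mean and a log2 difference of 0.27 ± 0.04 (SE; limma adjusted p = 0.00139, the lowest among the members), and the call held under all 16 alternatives. Its cyclin partners did not pass the test, and no test compared their changes with that of Cdk1. Ccnb1, the main mitotic B-type cyclin, had 10.8, 9.73 and 11.2 FPKM with acetate, against 10.2, 10.2 and 9.16 FPKM in controls, overlapping groups with a log2 difference of 0.09 (95% interval −0.06 to 0.25). Ccnb2, the Golgi-associated B-type cyclin, had 11.5, 11.3 and 11.0 FPKM with acetate, against 12.3, 14.4 and 12.1 FPKM in controls. Every acetate value of Ccnb2 was below every control value, but the difference of −0.18 (95% interval −0.34 to −0.03) missed the threshold (limma adjusted p = 0.0646), and it passed in 4 of 16 alternatives, TPM and voom among them.

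Ccna2, the cyclin of S and G2 phase, had 13.9, 15.2 and 13.8 FPKM with acetate, against 13.8, 14.2 and 13.3 FPKM in controls. The phosphatase gene Cdc25b had 5.80, 6.69 and 6.36 FPKM, against 7.07, 6.41 and 7.19 FPKM, and Cdc25c, at the lowest read numbers of the members, had 3.90, 3.46 and 3.87 FPKM, against 2.99, 4.51 and 3.34 FPKM. The groups overlapped for all of these, with log2 differences of 0.05, −0.12 and 0.05 for Ccna2, Cdc25b and Cdc25c, and the interval of Cdc25c was the widest of the members (−0.22 to 0.33). Cdc25c also overlaps a gene on the other strand, Gm3550, and Ccna2 overlaps Exosc9; the sources do not say whether reads were counted by strand.

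None of the 5 Polo kinase, Aurora kinase and passenger complex genes passed the test, beside 38.9% of all tested genes. Plk1, which activates Cdc25 and builds spindle poles, had 11.6, 12.0 and 13.8 FPKM with acetate, against 14.0, 13.3 and 14.5 FPKM in controls. The groups overlapped through acetate library 3 alone, and the difference of −0.15 (95% interval −0.30 to 0.01) passed without that library (limma adjusted p = 0.0210), after rescaling to TPM and with voom. Aurka, the spindle pole kinase, had 10.4, 11.4 and 11.5 FPKM, against 11.3, 10.2 and 9.82 FPKM in controls, a difference of 0.08 (−0.07 to 0.23). Aurkb, the catalytic subunit of the chromosomal passenger complex that corrects faulty attachments, had 13.0, 12.7 and 13.2 FPKM with acetate, against 14.3, 13.3 and 14.3 FPKM in controls. Its groups did not overlap, and the difference of −0.10 (95% interval −0.20 to 0.00) passed only after rescaling to TPM. The passenger scaffold Incenp, at 27.1, 26.5 and 26.2 FPKM against 27.9, 25.7 and 28.2 FPKM in controls, and Birc5, the survivin subunit, at 4.67, 5.10 and 5.27 FPKM against 4.94, 4.97 and 4.99 FPKM, overlapped, with differences of −0.03 and 0.01.

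In the spindle checkpoint group 1 of 7 genes passed (14.3%, beside 38.9% of all tested genes), and it was Ttk. Ttk encodes Mps1, the kinase at the head of the checkpoint. Its level was 4.53, 4.02 and 4.30 FPKM with acetate, against 3.04, 3.05 and 3.52 FPKM in controls. The groups were apart, the acetate mean was 1.34 times the control mean, and the log2 difference of 0.33 ± 0.07 (SE; limma adjusted p = 0.00916) was the most positive of all members and kept its call in all 15 alternatives that included it. The checkpoint proteins that act with Mps1 did not pass. Bub3, the adaptor that brings Bub1 and BubR1 to kinetochores, had 76.2, 80.2 and 88.0 FPKM with acetate, against 74.6, 73.1 and 71.9 FPKM in controls. Its acetate values were all higher, and the difference of 0.15 (95% interval 0.02 to 0.28) missed the threshold (limma adjusted p = 0.0644) but passed without acetate replicate 1 and among genes of at least 5 FPKM. Bub1, at 9.12, 9.54 and 8.14 FPKM against 9.75, 9.12 and 7.99 FPKM in controls, differed by −0.00 (−0.19 to 0.19).

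Bub1b, which encodes BubR1, had 14.6, 15.2 and 14.6 FPKM with acetate, against 14.5, 14.0 and 14.7 FPKM in controls, and Mad2l1, the Mad2 protein that inhibits Cdc20, had 10.7, 10.3 and 10.9 FPKM, against 10.05, 10.02 and 10.4 FPKM. Both pairs of groups overlapped, with intervals of −0.06 to 0.12 and −0.03 to 0.16. Cdc20, the activator of the anaphase-promoting complex, had 23.7, 26.9 and 29.8 FPKM in acetate libraries, a wider range than the 28.0, 27.4 and 27.8 FPKM of control libraries. Ube2c, the ubiquitin-conjugating enzyme of that complex, had 15.4, 16.1 and 16.0 FPKM with acetate, against 16.3, 16.6 and 16.3 FPKM in controls, slightly lower in every library, with a difference of −0.05 (95% interval −0.14 to 0.03) that passed only after rescaling to TPM.

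Of the 9 kinesins, 3 fell (Kif23, Kif11 and Kif18b), 1 rose (Kif20b) and 5 did not pass. The 44.4% that passed stood beside 38.9% of all tested genes. Kif23 encodes MKLP1, the motor of centralspindlin. It had 10.9, 11.3 and 11.0 FPKM with acetate, against 15.0, 13.6 and 13.1 FPKM in controls. The acetate libraries lay close together below all control libraries, the control mean was 1.26 times the acetate mean, and the log2 difference was −0.30 ± 0.05 (SE; limma adjusted p = 0.00451), kept under all 16 alternatives. Kif11, the Eg5 motor that pushes spindle poles apart, had 15.8, 15.5 and 13.7 FPKM, against 17.2, 18.3 and 17.5 FPKM in controls. Its groups did not overlap (log2 difference −0.22 ± 0.06, SE; limma adjusted p = 0.0205), and the call was lost without control replicate 2, without control replicate 3 and without a filter on low values (adjusted p between 0.0504 and 0.0655). Kif18b, which shortens astral microtubules, had 5.76, 5.80 and 5.42 FPKM, against 6.50, 6.51 and 6.55 FPKM in controls. The groups were apart by more than their spread, with a log2 difference of −0.18 ± 0.05 (SE; limma adjusted p = 0.0214) that fell short in 6 of 16 alternatives, without acetate replicate 3 and without each control library among them (adjusted p between 0.0526 and 0.0663).

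Kif20b, a motor of the late midzone that acts in abscission, went the other way. It had 9.76, 9.66 and 9.35 FPKM with acetate, against 8.20, 8.67 and 8.14 FPKM in controls. All acetate values were higher, with a log2 difference of 0.18 ± 0.04 (SE; limma adjusted p = 0.0150), and the call was lost after rescaling to TPM (adjusted p = 0.117) and without acetate replicate 2, control replicate 1 or control replicate 3. Its relative Kif20a, MKLP2, which carries the passenger complex to the midzone, had 10.5, 13.3 and 12.2 FPKM, against 10.4, 10.6 and 10.1 FPKM in controls. The groups overlapped through acetate library 1, and the difference of 0.19 (95% interval 0.01 to 0.37; limma adjusted p = 0.0869) passed only without that library (adjusted p = 0.00946). Kif20a overlaps Cdc23 on the other strand.

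The remaining kinesins gave no call. Kif15, which shares the work of Kif11 on spindle microtubules, had 8.82, 8.28 and 8.08 FPKM with acetate, against 8.67, 9.82 and 10.1 FPKM in controls. Its groups overlapped through control library 1, and the difference of −0.16 (95% interval −0.31 to −0.01) passed without that library, after rescaling to TPM and with voom. Kif4, a chromosome-arm motor, had 4.89, 4.90 and 4.87 FPKM, against 5.33, 5.31 and 5.11 FPKM in controls, lower in every acetate library but with an interval of −0.20 to 0.02. Kif4 overlaps Pdzd11 on the other strand by 832 bases, and Pdzd11 passed as higher. Kif2c, the microtubule depolymerase MCAK, had 5.58, 5.44 and 5.57 FPKM, against 5.54, 5.60 and 5.52 FPKM in controls, and Kif22, the chromokinesin Kid, had 6.28, 5.87 and 5.89 FPKM, against 6.61, 6.90 and 6.01 FPKM. Both overlapped, with differences of −0.00 (−0.11 to 0.10) and −0.10 (−0.23 to 0.04). Kif22 overlaps the antisense gene Gm31749, which did not pass.

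At centromeres and kinetochores 1 of 5 genes passed (20%, beside 38.9% of all tested genes). Cenpa, the histone H3 variant that marks the centromere, had 9.46, 9.58 and 9.55 FPKM with acetate, against 11.6, 10.9 and 10.8 FPKM in controls. The acetate libraries were nearly equal and all below the controls, with a log2 difference of −0.20 ± 0.04 (SE; limma adjusted p = 0.00908) that held under all 16 alternatives. The outer kinetochore genes did not pass. Ndc80, the microtubule-binding subunit, had 14.4, 14.6 and 14.8 FPKM, against 14.0, 15.9 and 14.4 FPKM in controls, and its partner Nuf2 had 5.08, 4.60 and 5.22 FPKM, against 5.03, 5.22 and 4.75 FPKM. Both differed by −0.01, with overlapping groups and intervals of −0.13 to 0.11 and −0.15 to 0.13. Cenpe, the kinetochore kinesin, had 7.97, 8.49 and 7.36 FPKM with acetate, against 8.21, 9.20 and 8.42 FPKM in controls, and Cenpf, a large corona protein, had 3.74, 3.50 and 3.21 FPKM, against 3.59, 3.70 and 3.81 FPKM. The groups of both overlapped, and Cenpe passed only with voom.

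Of the 5 spindle assembly genes, Nusap1 fell and Ckap2 rose (40% passed, beside 38.9% of all tested genes). Nusap1 crosslinks microtubules near chromosomes. Its level was 12.3, 14.0 and 11.5 FPKM with acetate, against 15.5, 15.6 and 16.6 FPKM in controls. All acetate values were lower, and the log2 difference of −0.32 ± 0.07 (SE; limma adjusted p = 0.00978) was the most negative of the members and was kept under all 16 alternatives. Nusap1 overlaps Oip5 on the other strand by 172 bases, and Oip5 passed as higher (limma adjusted p = 0.0465), although its groups overlapped and the call was lost in 9 of 16 alternatives, among them TPM, voom and the omission of acetate replicate 1 or 2 or control replicate 1 or 3 (adjusted p up to 0.136). Ckap2, which promotes microtubule growth, had 17.7, 15.7 and 14.4 FPKM, against 13.1, 13.8 and 13.9 FPKM in controls. Although its groups did not overlap, the log2 difference of 0.21 ± 0.07 (SE; limma adjusted p = 0.0473) lay next to the threshold and was lost in 11 of 16 alternatives, among them TPM and the omission of any library except acetate replicate 3 (adjusted p between 0.0537 and 0.224).

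Its paralogue Ckap2l had 10.1, 10.6 and 10.2 FPKM with acetate, against 9.46, 10.1 and 10.2 FPKM in controls. Tpx2, the activator and spindle anchor of Aurora A, had 27.6, 27.7 and 26.8 FPKM, against 28.9, 28.2 and 27.7 FPKM, and Hmmr, which binds microtubules with Tpx2, had 9.32, 9.79 and 8.13 FPKM, against 8.92, 10.1 and 9.40 FPKM. None of these passed, and their intervals were −0.05 to 0.15, −0.13 to 0.04 and −0.23 to 0.11.

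In cytokinesis, Racgap1 fell and the other 3 genes did not pass (25% passed, beside 38.9% of all tested genes). Racgap1 encodes the GTPase-activating subunit of centralspindlin, in which it is bound to Kif23. It had 8.08, 7.72 and 8.54 FPKM with acetate, against 9.75, 9.56 and 10.1 FPKM in controls. The groups were apart, the control mean was 1.21 times the acetate mean, and the log2 difference of −0.25 ± 0.05 (SE; limma adjusted p = 0.00703) was kept under all 16 alternatives. Both subunits of centralspindlin were thus lower. Ect2, the exchange factor that centralspindlin activates, had 6.49, 6.67 and 6.97 FPKM, against 6.25, 6.56 and 7.20 FPKM in controls, overlapping groups with a difference of 0.01 (95% interval −0.13 to 0.15). Prc1, which bundles midzone microtubules, had 3.51, 3.50 and 3.46 FPKM, against 3.55, 3.71 and 3.87 FPKM in controls, lower in every library with a difference of −0.07 (−0.20 to 0.06), and it overlaps Rccd1 on the other strand. Anln, the furrow scaffold anillin, had 2.72, 2.93 and 3.02 FPKM, against 2.29, 2.84 and 2.86 FPKM in controls, which overlapped.

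**Figure D3:**
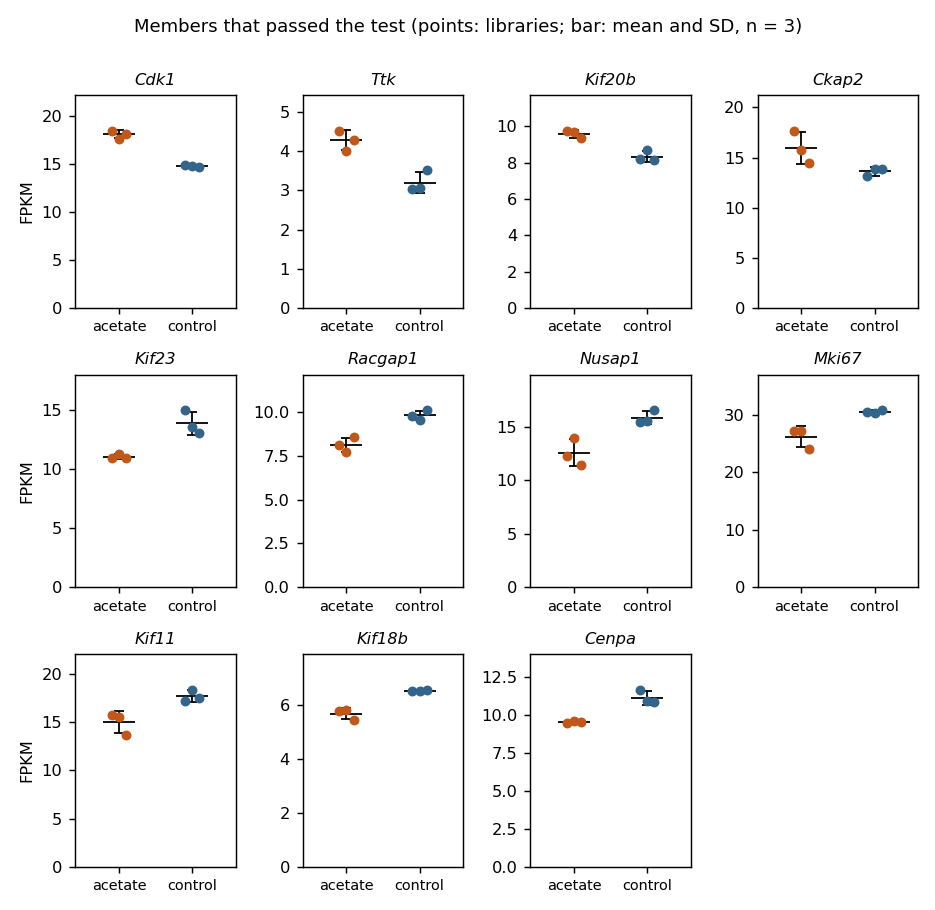
Level of the 11 members that passed the test in each library, in FPKM on linear axes that start at 0, with the mean and SD of 3 libraries per group. The acetate points of Cdk1, Ttk, Kif20b and Ckap2 lie above the control points and those of the other 7 genes below them.

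Genes around the members were taken from 7 lists of transcription factors, entry kinases, the anaphase-promoting complex, condensins, cohesin, kinetochore and spindle genes. Of 136 listed genes, 132 were found in the table and 127 were tested, of which 30 passed as higher and 16 as lower, 36.2% against the 38.9% of all genes. Their median log2 difference was 0.04, which became −0.03 after rescaling to TPM. By list the share that passed was 30.8% for transcription factors, 71.4% for mitotic entry, 43.8% for the anaphase-promoting complex and 75% for condensins. It was 13.3% for cohesin, 29.7% for kinetochore and checkpoint genes and 25% for the other kinesins, spindle and midbody genes.

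Of the 13 transcription factor genes that control the late cell cycle programme, 2 rose and 2 fell, and the median was 0.09. Foxm1, the forkhead activator of the G2 and mitosis genes, fell to 4.65, 4.47 and 4.26 FPKM with acetate, against 6.03, 5.40 and 5.80 FPKM in controls. The groups did not overlap, with a log2 difference of −0.30 ± 0.06 (SE; limma adjusted p = 0.00584). Mybl2, which encodes B-Myb, had 7.35, 7.47 and 7.91 FPKM, against 6.52, 6.70 and 6.60 FPKM in controls. It was higher in every acetate library (log2 difference 0.17 ± 0.05, SE; limma adjusted p = 0.0215), but the call was lost after rescaling to TPM, with voom and without acetate replicate 2 or 3 or control replicate 1 or 3 (adjusted p up to 0.120).

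Tfdp1, the DNA-binding partner of E2F proteins, rose to 160.8, 161.4 and 158.3 FPKM with acetate, against 126.2, 125.7 and 125.0 FPKM in controls, a log2 difference of 0.35 ± 0.03 (SE; limma adjusted p = 0.000352). Rbl2, the p130 pocket protein of the repressive DREAM complex, had 54.3, 53.8 and 53.1 FPKM, against 59.0, 56.8 and 57.1 FPKM in controls, and its call (log2 difference −0.10 ± 0.03, SE; limma adjusted p = 0.0493) was lost when any 1 of the 6 libraries was left out. The MuvB core did not pass: log2 differences were 0.17 for Lin9, −0.11 for Lin37, 0.14 for Lin52, −0.05 for Lin54 and 0.06 for Rbbp4. Nor did E2f4 (0.14, limma adjusted p = 0.0506), E2f5 (0.22), Rbl1 (−0.09) and Tfdp2 (0.09).

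Mitotic entry control held larger changes than any member: 7 of 14 tested genes rose, 3 fell and the median was 0.12. Cdc25a, the phosphatase that frees Cdk2 and Cdk1 from inhibitory phosphorylation, had 15.3, 15.1 and 15.5 FPKM with acetate, against 9.05, 8.64 and 9.15 FPKM in controls. Wee1, the kinase that places that inhibitory phosphate, had 12.7, 12.8 and 12.6 FPKM, against 8.10, 6.86 and 7.98 FPKM in controls. Both enzymes of this opposing pair were higher in every acetate library, by 0.71 ± 0.04 and 0.67 ± 0.06 (log2, SE; limma adjusted p = 7.64e-05 and 0.000363). Fbxo5, which encodes the Emi1 inhibitor of the anaphase-promoting complex, had 18.1, 17.9 and 17.2 FPKM, against 13.1, 12.1 and 12.4 FPKM in controls (log2 difference 0.47 ± 0.04, SE; limma adjusted p = 0.000362). The Cdc25b and Cdc25c genes among the members, by contrast, gave −0.12 and 0.05.

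In the anaphase-promoting complex 4 of 16 genes rose and 3 fell, with a median of 0.03 that became −0.04 after rescaling to TPM. Anapc16 had 10.7, 12.1 and 12.1 FPKM with acetate, against 15.8, 16.6 and 17.0 FPKM in controls. Anapc2 had 25.8, 25.5 and 27.5 FPKM, against 32.1, 30.9 and 31.1 FPKM, and Anapc10, which helps bind substrates, had 55.6, 59.7 and 54.4 FPKM, against 41.9, 47.1 and 44.8 FPKM. Subunits of this complex thus moved in both directions, by −0.47, −0.25 and 0.34 on the log2 scale (limma adjusted p = 0.000960, 0.00330 and 0.00300), with no overlap between groups.

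The condensins compact mitotic chromosomes: condensin I and II share Smc2 and Smc4 and differ in 3 further subunits. Of the 8 genes 4 rose, 2 fell and 2 did not pass, and the median was 0.11. Ncapg2 of condensin II had 18.6, 18.1 and 16.9 FPKM with acetate, against 13.5, 14.0 and 13.7 FPKM in controls, Ncapd3 of condensin II had 24.1, 24.2 and 22.4 FPKM, against 19.7, 19.7 and 18.3 FPKM, and the shared Smc2 had 33.0, 29.3 and 29.4 FPKM, against 24.0, 24.7 and 24.3 FPKM. These 3 rose by 0.36 ± 0.05, 0.28 ± 0.05 and 0.31 ± 0.05 (log2, SE; limma adjusted p = 0.00111, 0.00378 and 0.00318). The other condensin genes are named after their values were seen. Ncaph2 of condensin II had 27.2, 28.1 and 29.9 FPKM, against 24.8, 25.4 and 24.3 FPKM in controls, and passed (log2 difference 0.19, limma adjusted p = 0.0137) except after rescaling to TPM and without control replicate 3 (0.0519 and 0.0503). Of condensin I, Ncaph had 12.9, 14.2 and 12.8 FPKM, against 17.0, 16.7 and 15.1 FPKM, and fell (−0.27, limma adjusted p = 0.00959), Ncapd2 had 23.2, 23.4 and 23.7 FPKM, against 25.6, 26.0 and 25.7 FPKM, and fell (−0.13, limma adjusted p = 0.0166), and Ncapg did not pass (0.04, 95% interval −0.09 to 0.17). The Ncapd2 call was lost, among others, without acetate replicate 2, control replicate 2 or control replicate 3 (adjusted p up to 0.0600). All 3 subunits particular to condensin II were therefore above control in every acetate library, and of the 3 particular to condensin I 2 were below in every library. Over all tested genes 28.8% lay wholly above control and 23.1% wholly below. The contrast between the complexes was not itself tested. Smc4, shared by both, gave −0.02 (−0.16 to 0.11).

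**Figure D4:**
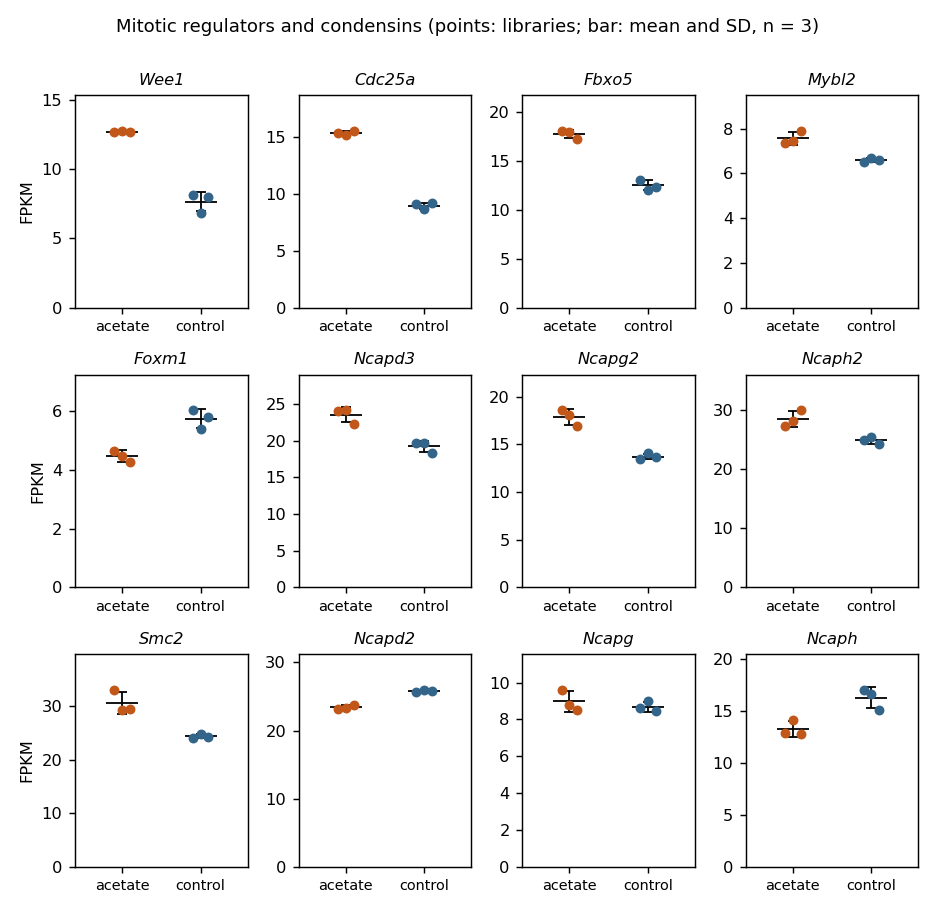
Level of 5 regulators of mitosis and 7 condensin genes in each library, in FPKM on linear axes that start at 0, with the mean and SD of 3 libraries per group. Wee1, Cdc25a, Fbxo5 and the condensin II genes Ncapd3, Ncapg2 and Ncaph2 lie higher with acetate, Foxm1 and the condensin I genes Ncapd2 and Ncaph lower.

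Cohesin and sister separation genes passed in 2 of 15 cases (13.3%, beside 38.9% of all tested genes), both higher, with a median of 0.11. Smc3, a subunit of the cohesin ring, had 31.8, 30.6 and 29.7 FPKM with acetate, against 23.4, 24.9 and 23.9 FPKM in controls (log2 difference 0.34 ± 0.04, SE; limma adjusted p = 0.000983). Its ring partner Smc1a, named after its values were seen, had 32.5, 31.6 and 32.2 FPKM, against 33.1, 33.9 and 34.2 FPKM, and did not pass. Esco1, a cohesin acetyltransferase, had 25.4, 26.7 and 23.3 FPKM, against 20.4, 22.8 and 21.9 FPKM in controls (0.20 ± 0.06, SE; limma adjusted p = 0.0328), a call lost in 8 of 16 alternatives: without a filter, after TPM, quantile or cyclic loess scaling, and without acetate replicate 1 or 2 or control replicate 1 or 3 (adjusted p between 0.0717 and 0.155). Stag2 did not pass, at 34.1, 33.3 and 32.3 FPKM with acetate, against 29.9, 32.2 and 30.4 FPKM in controls.

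Of 37 further kinetochore and checkpoint genes, 9 rose and 2 fell, a share of 29.7% against the 38.9% of all genes. Their median of 0.06 became −0.01 after rescaling to TPM. Cenps, listed in the table as Apitd1, had 6.64, 7.63 and 8.29 FPKM with acetate, against 4.62, 4.14 and 4.63 FPKM in controls, Mis12, of the complex that links centromere and outer kinetochore, had 20.1, 18.5 and 19.9 FPKM, against 13.5, 13.9 and 14.7 FPKM, and Mis18a, which primes centromeres for new Cenpa, had 10.1, 10.8 and 10.9 FPKM, against 7.18, 8.16 and 7.76 FPKM. All 3 were higher in every acetate library (log2 differences 0.64, 0.45 and 0.42; limma adjusted p = 0.00110, 0.000655 and 0.00143), while Cenpa itself was lower. Of 24 tested genes in the list of other kinesins, spindle and midbody genes, 2 rose, 4 fell and the median was −0.02. Lmnb1, which encodes the nuclear lamina protein lamin B1, had 51.4, 48.7 and 50.7 FPKM, against 39.6, 40.2 and 38.3 FPKM in controls, and Tubb4b, a beta tubulin, had 84.0, 90.0 and 90.8 FPKM, against 69.1, 68.8 and 65.5 FPKM. Psrc1, a spindle protein, had 51.6, 53.7 and 54.8 FPKM, against 66.3, 64.3 and 65.6 FPKM in controls. The first pair rose by 0.34 and 0.38 and Psrc1 fell by 0.29 on the log2 scale (limma adjusted p = 0.000644, 0.000782 and 0.00111).

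Lists for earlier phases of the cycle were measured in the same libraries. The share that passed was 92.3% for replication, 57.1% for G1 to S and 28.6% for CDK inhibitor and Gadd45 genes. Over all tested genes it was 38.9%. Of 26 replication origin and fork genes, 24 passed as higher and 0 as lower (26 of 26 lay wholly above control), their median was 0.48, and their summed level was 964.8, 991.3 and 1021 FPKM with acetate, against 704.8, 714.5 and 669.8 FPKM in controls. The 3 of lowest p were Orc1 (log2 difference 0.82), Rfc3 (0.67) and Mcm4 (0.64), each beyond the farthest member. Of 14 cyclin and E2F genes of the G1 to S transition, 8 rose and 0 fell, with a median of 0.24; Ccne1, Ccne2 and E2f1 rose by 0.75, 0.99 and 0.65. Of 7 tested CDK inhibitor and Gadd45 genes 0 rose and 2 fell. These were the CDK inhibitor Cdkn1b, which encodes p27, by 0.50 and Gadd45a by 0.39 on the log2 scale. The Gadd45a call was lost in 8 of 15 alternatives, among them the omission of any library except acetate replicate 3. The other tested CDK inhibitors did not pass, nor did Gadd45b and Gadd45g (0.19 for Gadd45g). The difference between these lists and the members was not given a test, since all were chosen with earlier results known.

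**Figure D5:**
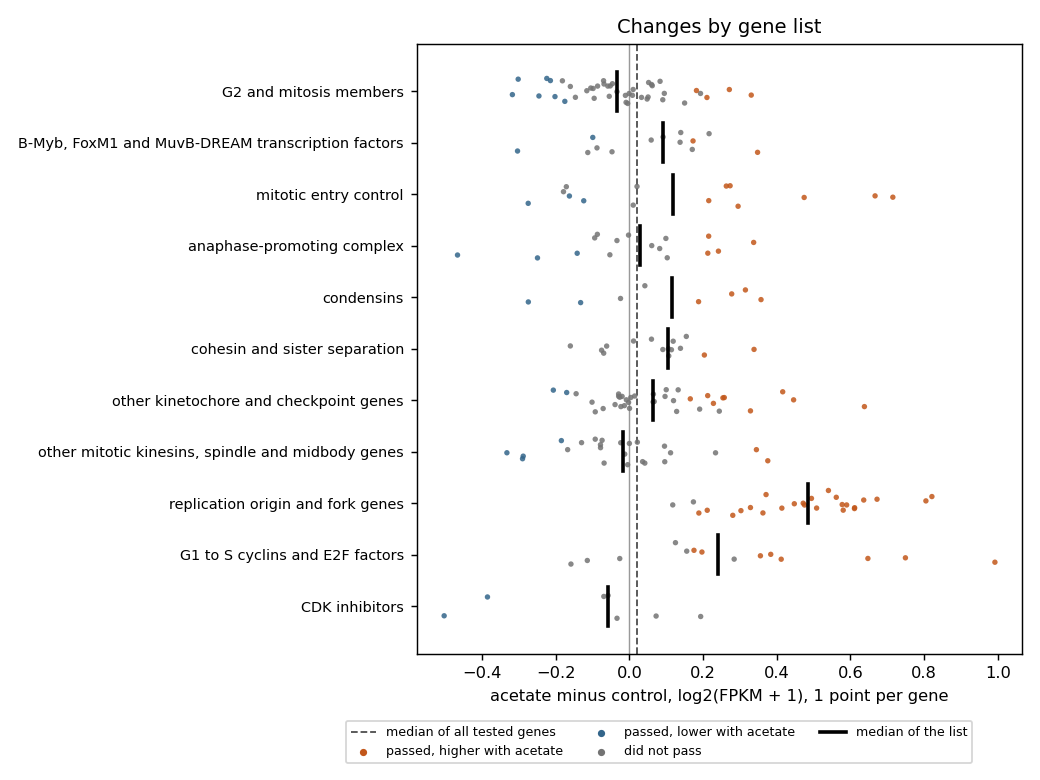
Difference between acetate and control cells on the log2(FPKM + 1) scale for each tested gene of the members, the 7 surrounding lists and 3 lists of other cycle phases, with each list's median as a black bar and the median of all tested genes, 0.02, as a dashed line. The members gather around their median of −0.03, while all 26 replication genes lie above 0 with a median of 0.48.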

How the data were processed

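The authors deposited a gene table of FPKM values. Per the labels' protocols it rests on TruSeq libraries sequenced from both ends on a NovaSeq instrument, and the submitters' processing notes list cutadapt 1.18, HISAT2 2.1.0 and the mm10 build. Which program counted reads, and how it treated strand or shared reads, is not given in the sources used here. Identifiers in the table belong to the C57BL/6NJ annotation and the positions do not match mm10 and are not printed; promoter positions are RefSeq's.

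Multiplying FPKM by gene length and by a library total that the values themselves imply gave whole reads for 100% of values within 0.01 reads. Even numbers made up 64.2% to 65.7% of values up to 40 reads, as when both ends of a pair are counted, so these reads overstate independent fragments. Read totals limit the precision, for counting error only.

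Samples were grouped by their titles, 3 libraries each. Genes averaging at least 1 FPKM were tested on log2(FPKM + 1), which understates changes of low genes, using limma (version 3.58.1, R version 4.3.3) with a trended empirical Bayes prior, no covariate and two-sided p-values adjusted by Benjamini-Hochberg at a threshold of 0.05. The script was tested on simulated data. Alternatives changed the pseudocount, the filter, the scaling (TPM, quantile, cyclic loess, median centring), the model (replicate block, voom on recovered reads) and left out each library; for genes outside the members they were chosen after seeing the data. Named were all members, some genes that overlap them, all genes of the transcription factor list, and the 3 genes of lowest p in each other list, with exceptions stated. Members and lists were chosen with earlier results of these data known, so no list was given a p-value.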

Additional observations from a re-analysis of the deposited data

How the results depend on the processing

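Of the 11 members that passed, 7 (Mki67, Cdk1, Ttk, Kif23, Cenpa, Nusap1 and Racgap1) passed under every alternative that included them, and no call changed sign; 8 further members passed in some alternative, and 14 members that did not pass changed sign in at least 1. After rescaling to TPM, 2 members were higher and 12 lower, 1396 of all genes were higher and 26 surrounding genes lower, and with voom 11 members were lower; TPM divides by the FPKM sum, which was 365765 to 384438 in acetate libraries and 352027 to 363385 in control libraries. Without single replicates, 2 to 5 members were higher and 5 to 7 lower, and of the surrounding genes 9 to 17 were lower. The median log2 difference of the members was −0.0492 among genes of at least 5 FPKM, −0.110 with TPM, −0.0199 with quantile normalization, −0.0441 with median centring, −0.0767 with voom, and −0.0454 to −0.0148 without single replicates. Whether replicate numbers pair the samples is not known. Deviations from group means correlated at −0.0537, 0.0258 and −0.0389 between same-numbered libraries, which cannot decide it, as pairing need not show in them. With the replicate block 3 members were higher and 6 lower, and 2052 and 1548 of all genes. The block ended, among others, the calls of Ckap2, Kif18b, Mybl2, Rbl2, Ncapd2 and Oip5 (block adjusted p 0.0801, 0.0552, 0.0513, 0.0958, 0.0514 and 0.0537). The cause of these shifts was not tested.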

Other observations

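Ratios of FPKM within a library do not depend on the library's scaling. The pairs given here were chosen after their values were seen, and no test was made. The ratio of Cdk1 to Ccnb2 was 1.61, 1.57 and 1.64 in acetate libraries, against 1.21, 1.03 and 1.22 in control libraries, and that of Cdk1 to Ccnb1 was 1.71, 1.81 and 1.62, against 1.46, 1.45 and 1.61. Neither overlapped between groups, the second by a narrow margin. Bub3 relative to Bub1 did overlap, at 8.35, 8.40 and 10.8 with acetate, against 7.65, 8.01 and 9.003 in controls. Kif20b relative to Kif23, 2 kinesins of the midzone, was 0.893, 0.855 and 0.851 with acetate, against 0.546, 0.636 and 0.622 in controls. Ect2 relative to Racgap1, its activator, was 0.803, 0.864 and 0.816, against 0.640, 0.687 and 0.714 in controls.

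Other pairs include genes outside the members. Mybl2 relative to Foxm1 was 1.58, 1.67 and 1.86 in acetate libraries, against 1.08, 1.24 and 1.14 in control libraries. Wee1 relative to Cdc25b was 2.19, 1.91 and 1.99, against 1.15, 1.07 and 1.11 in controls. Each condensin II subunit was higher relative to its condensin I counterpart: Ncapd3 to Ncapd2 averaged 1.00 ± 0.0539 with acetate and 0.746 ± 0.0297 in controls, Ncapg2 to Ncapg 1.99 ± 0.0592 and 1.58 ± 0.0311, and Ncaph2 to Ncaph 2.15 ± 0.177 and 1.53 ± 0.0744 (SD, n = 3 each).

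Over all tested genes the log2 difference fell with gene length (Spearman's rank correlation across genes −0.11, 10867 genes that share the same 6 libraries and are not independent), and the medians were 0.05, 0.03 and −0.01 from the shortest to the longest genes in 3 bins of about equal size. The members in the same bins had medians of −0.03 (6 genes), −0.00 (19 genes) and −0.07 (18 genes).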
